A study of Sus scrofa with 12 samples.

Results

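The genes described here encode the proteins of the 2 kinds of ribosome in a pig cell, the cytosolic ribosome and the mitochondrial ribosome. They were taken by symbol from the annotation of the Affymetrix porcine genome array: RPL and RPS symbols for the cytosolic class, without the RPS6K kinases, and MRPL and MRPS symbols for the mitochondrial class. The rule gave 122 genes of the 6765 that have a probe set annotated with a single symbol. Of these, 64 were cytosolic, with 38 of the large and 26 of the small subunit, and 58 were mitochondrial, with 36 of the large and 22 of the small subunit. Where a gene had several probe sets, the one with the highest mean over the arrays was used, as was needed for 24 cytosolic and 14 mitochondrial members. Another 14 probe sets carried such a symbol together with others and were not used. A few members fit the symbols without being known as ribosomal subunits: RPS19BP1, which binds RPS19, RPL7L1, a factor of large subunit assembly, and MRPS36, a component of the alpha-ketoglutarate dehydrogenase complex.

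Cytosolic ribosomes translate nuclear messages and hold RPL proteins in the large and RPS proteins in the small subunit, nearly all of them essential and kept at matched amounts. Their messages are among the most abundant in most cells and carry a pyrimidine tract at the 5′ end through which growth signals, relayed by mTOR, control their translation. Mitochondrial ribosomes are built from nuclear-encoded MRPL and MRPS proteins around RNA of the mitochondrial genome. They make a small set of proteins of the respiratory chain, which fat cells and steroid-producing follicle cells both use.

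RNA was measured in pig cells on 12 arrays in 4 groups of 3, and the study asked which functions change when specialised cells lose their identity in culture. Mature adipocytes (MA) came from fat tissue, and dedifferentiated fat cells (DFAT) were such adipocytes after ceiling culture, a method that lets buoyant fat cells settle on the upper wall of a filled flask, where they lose their lipid. Granulosa cells (GC) came from ovarian follicles, and dedifferentiated follicular granulosa cells (DFOG) were GC after culture, with both cultured kinds taken at semiconfluence. The labels give no breed, age, genotype or treatment. They call the replicates of each group biological, but do not give whether these come from separate animals or separate cultures. P-values therefore measure only how these samples spread, which may in part be technical. DFAT against MA and DFOG against GC set cultured cells against freshly isolated ones, so dedifferentiation cannot be told apart from culture itself. DFOG replicates 2 and 3 differed by an SD of 0.0741 over probe sets, against 0.31 to 0.62 for the other 11 pairs of arrays within a group. They were averaged and counted as 1 sample, which leaves 2 DFOG samples.

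All values are the deposited log2 levels, made by robust multi-array averaging (RMA), which sets all arrays to a common distribution. A difference of 1 is therefore a 2-fold difference against the rest of the RNA measured, and no absolute amount per cell can be read. In a mixed sample, fewer cells of a type and less RNA per cell cannot be told apart. A member was called where limma's moderated two-sided test gave a Benjamini-Hochberg adjusted p under 0.05 over all 23999 probe sets. The labelled cell types showed their markers: the mean level over 9 adipocyte markers was 11.88 to 12.11 in MA and 5.64 to 7.69 elsewhere, and over 10 granulosa markers it was 9.68 to 10.16 in GC and 5.11 to 6.10 elsewhere. Other measures moved with the groups. The mean over 8 macrophage markers was 5.82 to 6.83 in MA and 4.21 to 4.76 in the other groups (RMA lists no value at 0), and that over 8 proliferation markers was 5.33 to 5.50 in MA, 7.75 to 9.47 in DFAT, 9.34 to 9.83 in GC and 8.90 to 9.26 in DFOG. Over 7 endothelial markers it was 5.42 to 6.01 in MA and 4.79 to 5.13 elsewhere, and over 7 lymphocyte markers 5.26 to 5.50 and 4.48 to 4.75. Over 6 theca and oocyte markers it was 5.78 to 6.15 in GC and 5.17 to 5.80 elsewhere. On the actin control probe sets the level at the 3′ end exceeded that at the 5′ end, a sign of RNA quality or labelling, by 1.88 ± 0.52 in MA and 1.35 ± 0.55 in GC against 0.61 ± 0.33 in DFAT (SD, n = 3 each) and 0.39 ± 0.33 in DFOG (SD, n = 2). Their part in the differences below was not tested, apart from a fit with that actin excess as a covariate. Centring the arrays on the spiked poly-A controls in place of the common distribution shifted the all-probe-set median to 0.48 in DFAT against MA and to −0.68 in DFOG against GC, so directions are relative to all other RNA, and each called difference smaller in size than the shift, and against it, turns sign under that centring.

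The cytosolic members lay near the top of the array's range. Their mean levels over the 12 arrays had a median of 13.53, and 51 of the 64 were at 13 or above, while the highest value on any array was 14.92. A handful of cytosolic probe sets were dim, with means of 3.83 for RPS15A, 4.08 for RPL30 and 5.02 for RPL26. Each is part of every cytosolic ribosome, so a dim probe set is not read here as a low message, and none of these 3 genes was called in any comparison. Mitochondrial members ran from 5.45 to 10.64 with a median of 9.17. The residual SD around the group means had a median of 0.15 for cytosolic and 0.24 for mitochondrial members, against 0.26 for all tested probe sets. Whether probes near the top of the range were saturated was not tested.

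When mature adipocytes became DFAT cells, the cytosolic ribosomal proteins moved little as a class and the mitochondrial ones moved in both directions. Among cytosolic members 7 rose and 3 fell, or 15.6% of the 64, where 32.1% of all tested probe sets and 41.1% of the 6765 named genes were called (15.7% of probe sets higher and 16.4% lower). Among mitochondrial members 8 rose and 14 fell, or 37.9% of the 58. The median log2 difference was 0.05 for cytosolic and −0.12 for mitochondrial members, beside −0.07 for all probe sets. The median size of the difference, sign aside, was 0.16 for cytosolic members, 0.41 for mitochondrial members and 0.36 for all probe sets. Among 84 other probe sets with a mean level of at least 13, a set chosen after the data were seen because most cytosolic members are that bright, 26.2% were called and the median size was 0.28. For 57 of the 64 cytosolic and 36 of the 58 mitochondrial members the 95% interval of the difference lay within 2-fold either way.

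**Figure D1:**
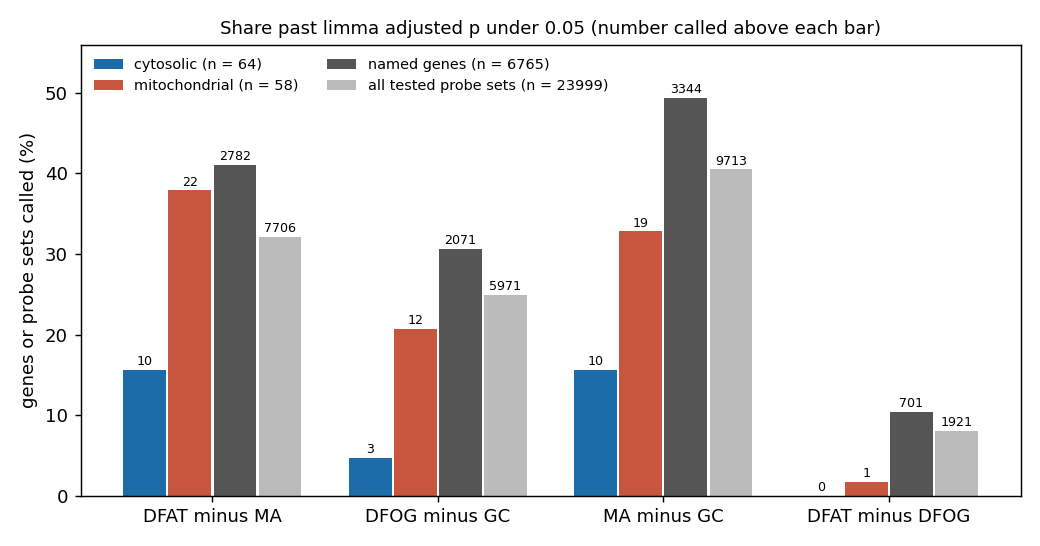
Share of genes called in 4 comparisons, in percent (limma, adjusted p under 0.05, both directions together), for the 64 cytosolic members, the 58 mitochondrial members, the 6765 named genes and all 23999 tested probe sets, with the number called above each bar. In DFAT against MA 15.6% of cytosolic and 37.9% of mitochondrial members were called beside 32.1% of all probe sets. In DFAT against DFOG no cytosolic and 1 mitochondrial member were called, beside 8% of all probe sets and 10.4% of named genes.

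The cytosolic members that rose in DFAT all belonged, by symbol, to the large subunit class, led by RPL37. This gene had 1 probe set, whose mean of 9.22 over the arrays lay far under the class median of 13.53. Whether that probe set follows the RPL37 message was not tested, which limits every RPL37 value given here. The RPL37 level was 7.84, 8.06 and 7.80 in MA, 10.25, 10.67 and 10.03 in DFAT, 9.49, 9.60 and 8.79 in GC, and 9.34 and 9.41 in the 2 DFOG samples. The MA arrays were thus the lowest and the DFAT arrays the highest, with no overlap with any other group. The DFAT level was 5.33-fold that of MA (log2 2.42 ± 0.23 SE, limma adjusted p = 1.25e-05). RPL13, also a large subunit protein, read 11.79, 11.79 and 12.07 in MA and 12.84, 12.50 and 12.97 in DFAT, a 1.85-fold rise (log2 0.89 ± 0.16 SE, limma adjusted p = 0.00132). RPL3, which sits next to the peptidyl transferase centre, rose 1.77-fold, from 12.61, 12.48 and 12.65 to 13.47, 13.31 and 13.44 (log2 0.82 ± 0.16 SE, limma adjusted p = 0.00199). For both genes MA lay below all arrays of the other 3 groups.

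Smaller rises were called for RPL7L1 (log2 0.78 ± 0.24), RPL23 (0.63 ± 0.15), RPL8, a core protein of the large subunit (0.59 ± 0.18), and RPLP0, the base of the stalk that recruits elongation factors (0.46 ± 0.13, all SE). RPLP2, an acidic protein of that same stalk, fell (−0.49 ± 0.16, but 0.059 with poly-A centring), as did RPS19BP1 (−0.61 ± 0.18) and RPL36AL, a near copy of RPL36A (−0.77 ± 0.25). RPS19BP1 counts as a small subunit member by its symbol only, and no other small subunit gene was called on its brightest probe set. RPS6, the protein phosphorylated by the S6 kinases, read 13.83, 13.77 and 13.82 in MA and 13.93, 13.53 and 13.68 in DFAT. The adjusted p of these 7 smaller changes ran from 0.00614 for RPL23 to 0.0404 for RPLP2. Of the 10 calls, those of RPL37, RPL13, RPL3 and RPL23 held when any 1 sample was left out, and none of the 3 falls did. With poly-A centring, which raised every difference in this comparison alike, the 3 falls lost their calls too, with −0.22 for RPL36AL and −0.062 for RPS19BP1. Without MA replicate 2 the number of cytosolic calls was 4. With the actin difference as a covariate it was 2, RPL37 and RPL13 among them. RPL23 had 3 probe sets, and the other 2 differed by −0.48 and 0.75 without a call, while both probe sets of RPLP0 rose. Some members with no call had a dimmer probe set that fell: RPS25 (−2.25), RPL9 (−1.30), RPL24 (−1.13) and RPL6 (−0.99).

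**Figure D2:**
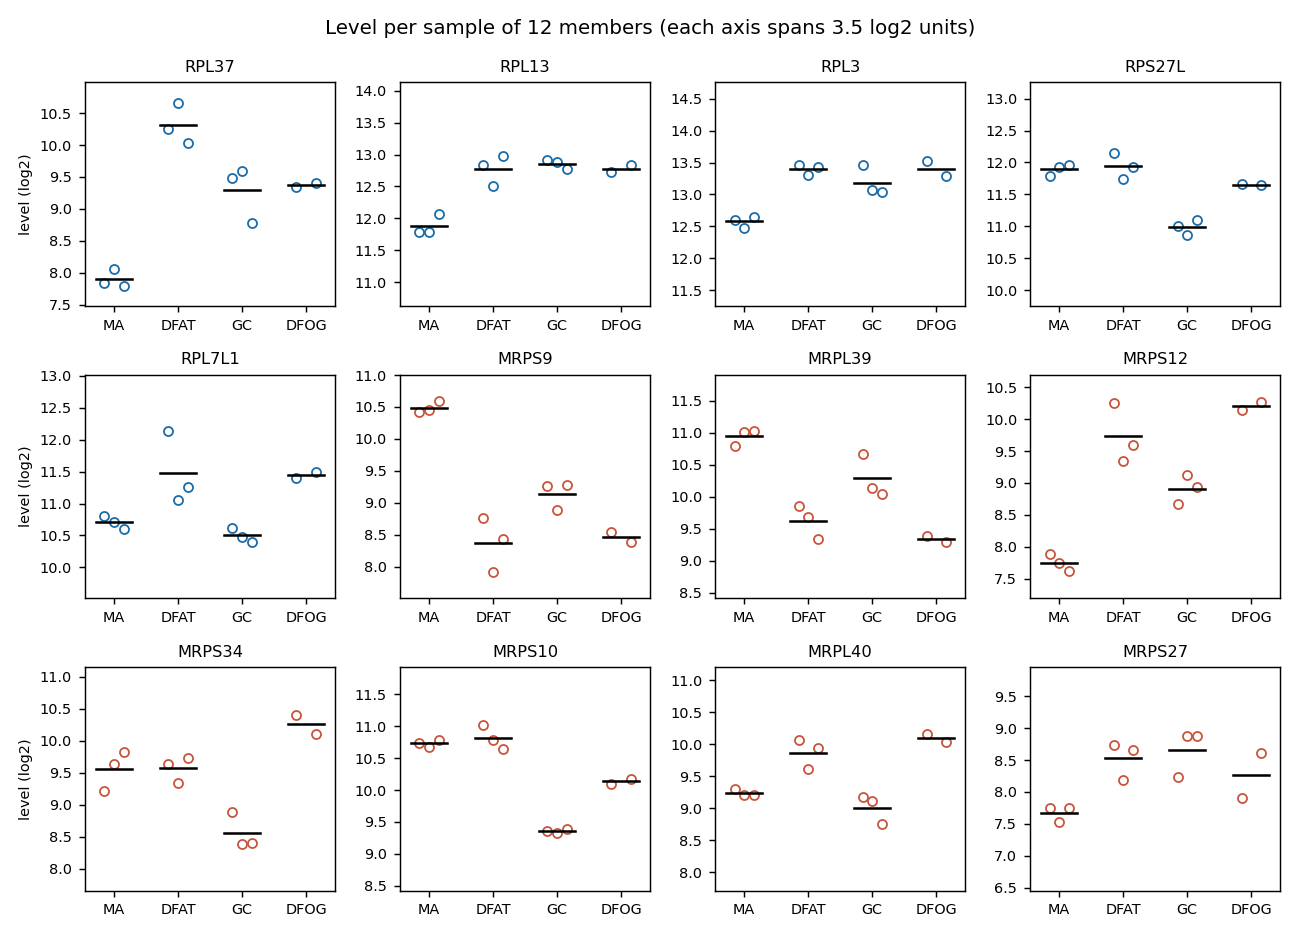
Log2 levels on each array for 12 members named in the text, 1 panel per gene with the groups on the horizontal axis, a point per sample (the averaged DFOG replicates are 1 point) and a line at the group mean. RPL37 is lowest in the 3 MA arrays (7.80 to 8.06) and highest in the 3 DFAT arrays (10.03 to 10.67), while MRPS9 is highest in MA.

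Among mitochondrial members the largest rise was that of MRPS12 and the largest fall that of MRPS9. MRPS12, the counterpart of the bacterial decoding-centre protein S12, read 7.88, 7.75 and 7.62 in MA and 10.25, 9.35 and 9.59 in DFAT. The groups did not overlap, and the rise was 3.94-fold (log2 1.98 ± 0.22 SE, limma adjusted p = 4.43e-05). Its 3 probe sets differed by 0.77 to 1.98, and 2 of them were called. MRPS9, the counterpart of bacterial S9, went the other way. It read 10.42, 10.46 and 10.59 in MA against 8.77, 7.92 and 8.43 in DFAT, a 4.35-fold lower level (log2 −2.12 ± 0.21 SE, limma adjusted p = 1.67e-05). A second MRPS9 probe set differed by −2.08. Both of these genes belong to the mitochondrial small subunit, so messages for proteins of 1 subunit changed in opposite directions.

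The other mitochondrial rises were MRPL17 (log2 0.95 ± 0.18), MRPS27, a pentatricopeptide repeat protein (0.85 ± 0.25), MRPL35 (0.70 ± 0.20), MRPL40 (0.63 ± 0.17) and MRPL37 (0.60 ± 0.18, all SE), with MRPL52 and MRPS7 at 0.57 and 0.51. After MRPS9 the largest fall was that of MRPL39, a protein with no bacterial counterpart. It read 10.80, 11.01 and 11.03 in MA and 9.85, 9.68 and 9.34 in DFAT (log2 −1.32 ± 0.20 SE, limma adjusted p = 0.00036). The arrays of the 2 groups did not overlap. MRPL30 fell by 0.96, MRPL33 by 0.88, MRPS36 by 0.85 and MRPL9 by 0.84 on the log2 scale. The remaining 8 falls were smaller, from −0.76 for MRPL36 through MRPL15, MRPS22, MRPS15, MRPL10, MRPL45 and MRPL53 to −0.47 for MRPS5, which was 0.082 with poly-A centring. MRPL33 had a second probe set that differed by 0.59 in the other direction without a call. The 3 probe sets of MRPL35 differed by 0.08 to 0.70 and the 3 of MRPL52 by −0.26 to 0.57, with 1 called in each. The calls of MRPL33, MRPL35 and MRPL52 were lost with the mean over the probe sets of a gene. By subunit, 5 large and 3 small subunit members rose, and 9 large and 5 small subunit members fell, with MRPS36 counted among the last by its symbol only. Of the 22 calls, 13 held without any 1 sample, 10 of them falls, and the calls of MRPS9, MRPL39 and MRPS12 held under every alternative run. Poly-A centring raised every difference in this comparison by the same amount, so it could only enlarge a rise and is no check on the rises. Every rise kept its call under it, and of the falls only MRPS9 and MRPL39 did. Among falls that held without any 1 sample, MRPL9 went to −0.29, MRPL10 to −0.10 and MRPL53 to −0.087 under that centring. With the actin difference as a covariate 12 members were called.

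Between GC and DFOG the calls were fewer, for the members and for all probe sets, with 2 samples in the DFOG group. Among cytosolic members 3 rose and none fell, or 4.69%, where 24.9% of all probe sets (12.3% higher and 12.6% lower) and 30.6% of named genes were called. Among mitochondrial members 7 rose and 5 fell, or 20.7%. The median difference was 0.02 for cytosolic and −0.06 for mitochondrial members, beside −0.02 for all probe sets, and the median size was 0.10, 0.31 and 0.34. Of the bright probe sets outside the 2 classes 21.4% were called, with a median size of 0.18. The 95% interval lay within 2-fold for 61 of 64 cytosolic and 40 of 58 mitochondrial members.

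The 3 cytosolic rises were small. RPL7L1 read 10.62, 10.48 and 10.40 in GC and 11.41 and 11.50 in DFOG (log2 0.95 ± 0.27 SE, limma adjusted p = 0.0233). RPS27L, a close relative of RPS27 that p53 induces in human cells, read 11.01, 10.86 and 11.09 in GC and 11.66 and 11.65 in DFOG (log2 0.67 ± 0.17 SE, limma adjusted p = 0.0125). RPSA, a small subunit protein also known as a laminin receptor precursor, went from 13.65, 13.52 and 13.48 to 14.04 and 14.11 (log2 0.52 ± 0.16 SE, limma adjusted p = 0.0348). The groups did not overlap for any of the 3, nor for some members with no call, such as RPL10A and RPS12. None of the 3 calls held without each sample in turn, and with the actin covariate no cytosolic member was called. With poly-A centring RPS27L (−0.0006) and RPSA (−0.15) turned sign. Without DFOG replicate 1 no cytosolic member was called, and 1 was called without the averaged DFOG replicates, without GC replicate 2 or without GC replicate 3, while 5 were called without DFAT replicate 1. RPL37 read much the same in both groups, with a difference of 0.09 ± 0.26 (SE).

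MRPS34, a small subunit protein with no bacterial counterpart, rose most. It read 8.88, 8.39 and 8.40 in GC and 10.41 and 10.10 in DFOG, a 3.24-fold rise (log2 1.70 ± 0.23 SE, limma adjusted p = 0.000284). MRPS12 rose here too, from 8.66, 9.12 and 8.94 to 10.15 and 10.26 (log2 1.30 ± 0.25 SE, limma adjusted p = 0.00286). MRPL40 rose by 1.09 ± 0.19, MRPL35 by 0.83 ± 0.23, MRPS10 by 0.77 ± 0.16, MRPL28 by 0.69 ± 0.20 and MRPL17 by 0.62 ± 0.20 (log2, SE), the last of which was −0.051 with poly-A centring. Among the falls MRPL10, whose protein anchors the stalk of the mitochondrial large subunit, read 9.95, 9.81 and 9.96 in GC and 8.74 and 9.08 in DFOG (log2 −0.995 ± 0.18 SE, limma adjusted p = 0.00206). MRPL3 fell by 1.16 ± 0.35, MRPL39 by 0.95 ± 0.22, MRPS24 by 0.74 ± 0.22 and MRPL9 by 0.56 ± 0.16 (log2, SE). MRPL3 was spread widely in GC, from 10.62 to 11.95, and its arrays there lay above the DFOG levels of 9.96 and 10.39. Of the 12 calls, MRPS34, MRPL40, MRPS10, MRPS12 and MRPL10 held without any 1 sample. Poly-A centring lowered every difference in this comparison alike, so it could only enlarge a fall such as that of MRPL10. With it the calls of MRPL40 (0.42), MRPS10 (0.11) and MRPS12 (0.63) were lost, while MRPS34 and MRPL10 kept theirs. Without the averaged DFOG replicates 6 mitochondrial members were called, and 7 without DFOG replicate 1, GC replicate 2 or GC replicate 3.

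Some members changed in the same direction in both cell types, and none was called in opposite directions. RPL7L1 rose in both, as 1 of 7 cytosolic rises in DFAT and 1 of 3 in DFOG. MRPS12, MRPL40, MRPL35 and MRPL17 rose in both, which is 50% of the mitochondrial rises in DFAT and 57.1% of those in DFOG. MRPL39, MRPL10 and MRPL9 fell in both, 21.4% of the falls in DFAT and 60% of those in DFOG. Over all named genes the rises called in both made up 40.3% of those in DFAT and 48.4% of those in DFOG, and the falls 24.9% and 37.9%. With poly-A centring the DFOG rises of RPL7L1 (0.29), MRPS12 (0.63), MRPL40 (0.42), MRPL35 (0.16) and MRPL17 (−0.051) lost their calls. The DFAT falls of MRPL10 (−0.10) and MRPL9 (−0.29) did so too, so of these members only MRPL39 kept both calls. MRPL9 read 10.15, 10.21 and 10.41 in MA, 9.44, 9.34 and 9.48 in DFAT, 10.02, 9.88 and 9.88 in GC, and 9.52 and 9.23 in DFOG, so that both cultured groups lay below both fresh ones. The 2 comparisons share no arrays. Across genes their differences correlated with r = 0.27 over the 64 cytosolic members, 0.52 over the 58 mitochondrial members and 0.34 over all 6765 named genes, given as a description, since genes are not independent replicates. No call was made in either comparison for 52 cytosolic and 31 mitochondrial members.

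**Figure D3:**
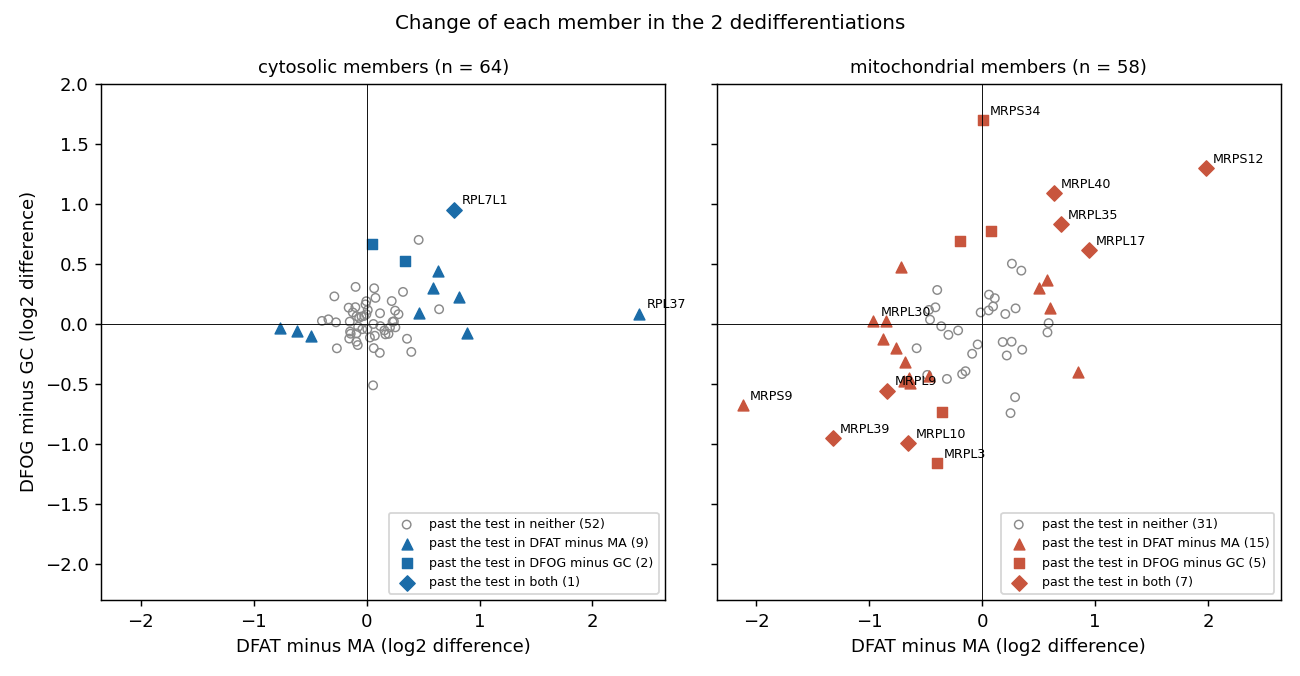
Log2 difference DFOG minus GC (vertical) against DFAT minus MA (horizontal) for each cytosolic and mitochondrial member, 1 point per gene. Filled symbols mark members called in 1 or both comparisons. Most cytosolic members lie close to the origin, RPL37 stands apart at 2.42 on the horizontal axis, and MRPS12 is high on both axes.

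The difference between the 2 dedifferentiations was tested as an interaction, DFAT minus MA less DFOG minus GC. It was called for 2 of 64 cytosolic members (3.12%) and 6 of 58 mitochondrial members (10.3%), where 23.3% of all probe sets (11.6% higher and 11.7% lower) and 29.1% of named genes were called. Of the bright probe sets outside the 2 classes 15.5% were called, with a median size of 0.38 beside 0.21 for cytosolic members. RPL37 (2.33 ± 0.35, limma adjusted p = 0.000615) and RPL13 (0.97 ± 0.24, limma adjusted p = 0.0136) rose more from MA to DFAT than from GC to DFOG. MRPS27 did so as well (1.25 ± 0.37, limma adjusted p = 0.0303). MRPS34 had the lowest value (−1.69 ± 0.31, limma adjusted p = 0.00251), having risen from GC to DFOG and differed by 0.01 from MA to DFAT. MRPS9 (−1.44 ± 0.32, limma adjusted p = 0.00666) fell more from MA to DFAT than from GC to DFOG, where its difference of −0.68 had an adjusted p of 0.059. MRPL15 (−1.19 ± 0.36), MRPL28 (−0.89 ± 0.27) and MRPS10 (−0.69 ± 0.21, all SE) had adjusted p-values of 0.0345, 0.036 and 0.0357, and with poly-A centring they turned to 0.028, 0.33 and 0.53. The calls of RPL37, MRPS34 and MRPS9 held without any 1 sample, and each of the other 5 was lost without at least 1 of them. With poly-A centring the calls of MRPS34 (−0.47) and MRPS9 (−0.23) were lost as well. Without MA replicate 2 or 3, GC replicate 2 or 3 or DFOG replicate 1 the mitochondrial calls numbered 2, and without the averaged DFOG replicates 3. The cytosolic calls numbered 1 without DFOG replicate 1 and 4 without DFAT replicate 1.

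More members were called between the starting cells than between the cultured ones. Between MA and GC 5 cytosolic members were higher and 5 lower in MA (15.6%), and 15 mitochondrial members were higher and 4 lower (32.8%), where 40.5% of all probe sets (20.7% higher and 19.7% lower) and 49.4% of named genes were called. Of the bright probe sets outside the 2 classes 42.9% were called, with a median size of 0.41 beside 0.21 for cytosolic members. The 5 cytosolic members lower in MA were RPL37 (−1.39 ± 0.23), RPL13 (−0.97 ± 0.16), RPL26L1 (−0.72 ± 0.16), RPL3 (−0.61 ± 0.16) and RPS27 (−0.58 ± 0.15), and all 5 calls held in every alternative run. Of those runs, poly-A centring lowered every difference in this comparison alike, so it could only enlarge these 5 and is no check on them. The 5 higher in MA were RPS27L (0.90 ± 0.15), RPL36AL (0.79 ± 0.25), RPLP2 (0.57 ± 0.16), RPL6 (0.48 ± 0.15) and RPL9 (0.44 ± 0.15, all SE). Of these, the call of RPS27L alone held without any 1 sample, and without GC replicate 3 the cytosolic calls numbered 6. Some members with no call had a dimmer probe set that was called. Among them were RPL24 (1.31) and RPS6 (0.99), higher in MA, and RPS27A (−1.73) and MRPL18 (−0.43), lower. RPL37, RPL13 and RPL3 thus began low in MA, and because both comparisons use the MA arrays their rise in DFAT and their low level against GC share those values.

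Of the 19 mitochondrial calls 15 were higher in MA, or 25.9% of the class, where 26.8% of named genes were higher. MRPL15, a large subunit protein, read 10.59, 11.54 and 11.52 in MA and 9.75, 9.48 and 9.36 in GC (log2 1.69 ± 0.24 SE, limma adjusted p = 0.000175). MRPS10, the counterpart of bacterial S10, read 10.74, 10.68 and 10.78 in MA and 9.36, 9.33 and 9.39 in GC (log2 1.37 ± 0.14 SE, limma adjusted p = 1.42e-05). MRPS9 was higher by 1.35 ± 0.21 and MRPS35 by 1.03 ± 0.20 (SE). None of these 4 genes overlapped between MA and GC, but neither did some members with no call, such as MRPL13 and RPL17. The 4 members lower in MA were MRPS12 (−1.16 ± 0.22), MRPS27 (−0.98 ± 0.25), MRPL16 (−0.87 ± 0.22) and MRPL17 (−0.50 ± 0.18, all SE). The 3 probe sets of MRPS12 differed by −1.16 to −0.25 with 1 called, and its call was lost with the mean over the probe sets of a gene. Without MA replicate 2 or 3 or GC replicate 2, 12 of the mitochondrial members were called. With poly-A centring, which moved the median of all probe sets in this comparison to −1.09, all 5 cytosolic members and 12 of the 15 mitochondrial ones called higher turned to lower in MA, and no member of either class was called higher. The macrophage markers, 8 of 8 of which were higher in MA than in GC, and the proliferation markers, 7 of 8 of which were lower, moved with this comparison. Of 7 endothelial markers 4 were higher and 1 lower in MA, and of 7 lymphocyte markers 3 were higher and none lower. The part of all these markers in it was not tested.

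After culture few members differed between the 2 lineages. Between DFAT and DFOG no cytosolic member and 1 mitochondrial member (1.72%) were called, where 8% of all probe sets (3.7% higher and 4.31% lower) and 10.4% of named genes were. Of the 84 bright probe sets outside the 2 classes none was called either. Their median size was 0.11, beside 0.09 for cytosolic members, so the lack of cytosolic calls was shared by other probe sets as bright. The mitochondrial one was MRPS10, at 11.02, 10.79 and 10.64 in DFAT against 10.09 and 10.18 in DFOG (log2 0.68 ± 0.16 SE, limma adjusted p = 0.0208). Its groups did not overlap, but the call was lost without either DFOG sample. Without DFAT replicate 1 there were 2 mitochondrial calls, and without DFAT replicate 3 or GC replicate 3 there was 1 cytosolic call. At an unadjusted p under 0.05, limma counted 2 cytosolic and 4 mitochondrial members, and limma with a trended, robust variance called 1 cytosolic member. A dimmer probe set of RPS27A, whose brightest one differed by 0.06, was called lower in DFAT (−1.04). RPL37 had the lowest p of the cytosolic class, with DFAT higher by 0.94 and an adjusted p of 0.0506. The 95% interval lay within 2-fold for 62 of 64 cytosolic and 53 of 58 mitochondrial members, so larger differences lay outside the interval for most of them, with only 2 DFOG samples in the fit.

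**Figure D4:**
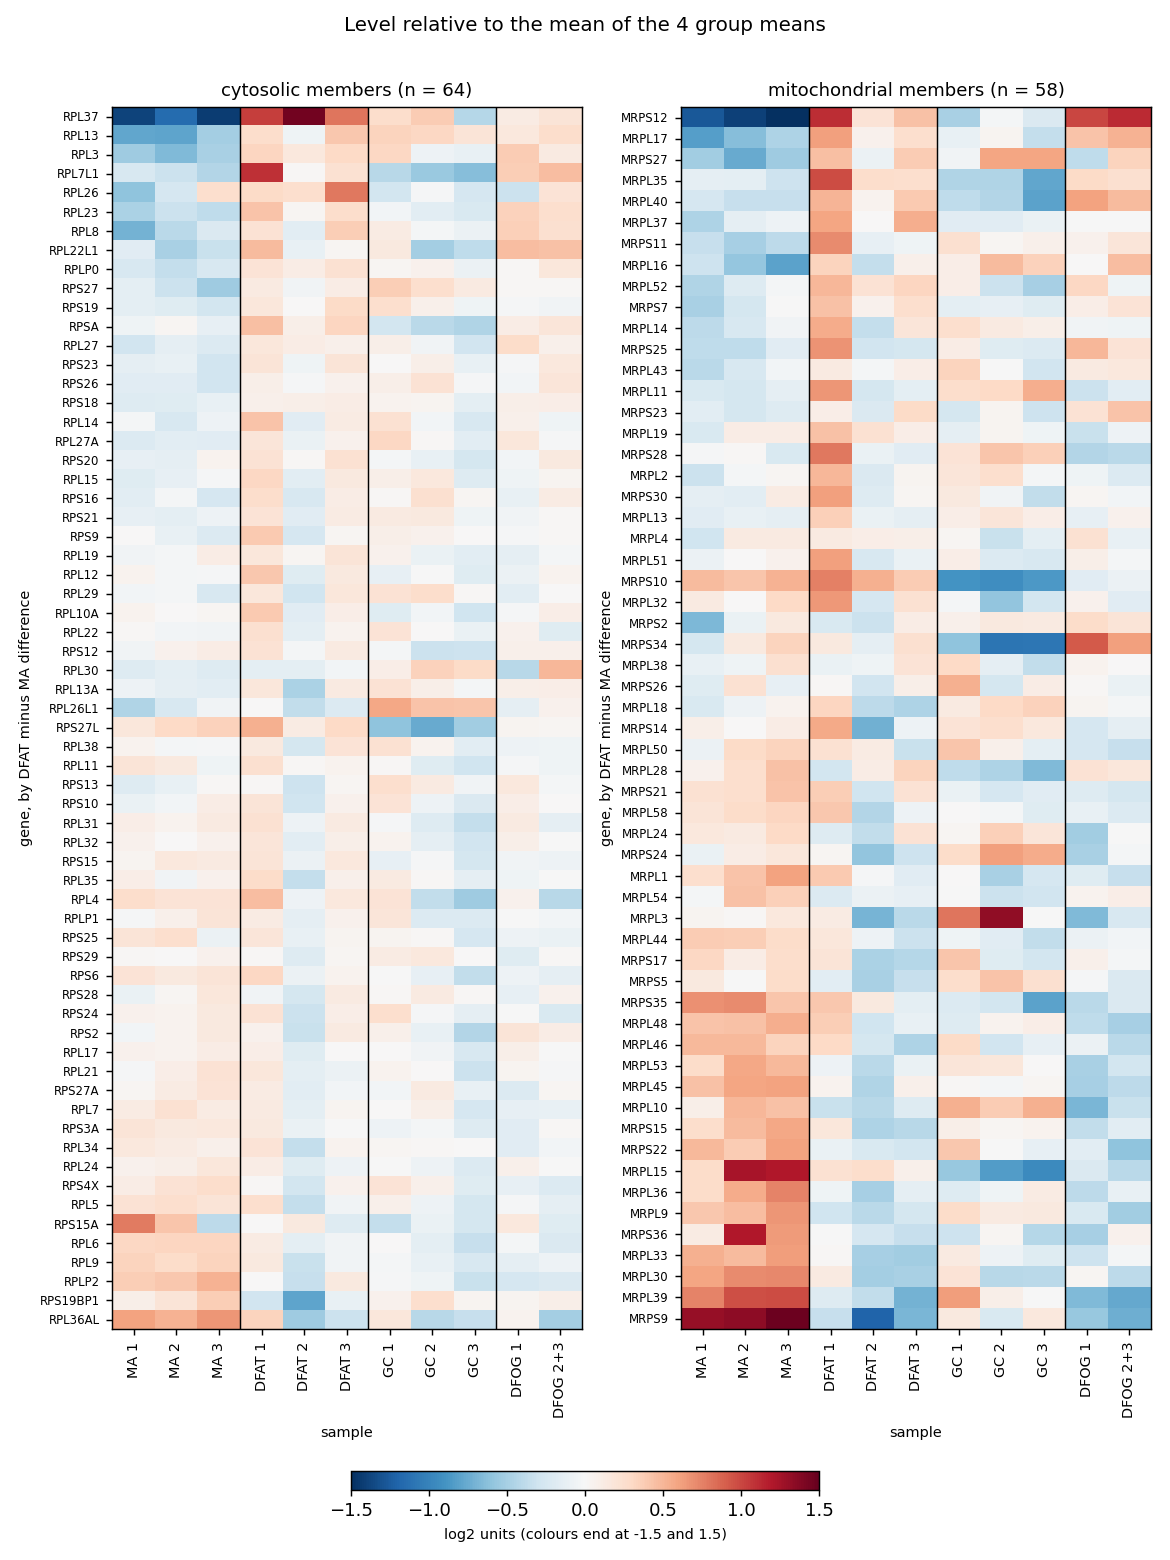
Log2 level of all 64 cytosolic (left) and 58 mitochondrial members (right) in each of the 11 samples, as the difference from the mean of that gene's 4 group means, in red where higher and blue where lower. Rows are genes ordered by their DFAT minus MA difference, with RPL37 and MRPS12 at the top and RPL36AL and MRPS9 at the bottom, and most cytosolic rows are pale in every column.

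Several cytosolic members have a paralog, a near copy that can replace them in the ribosome or act beside it, and the array measured some pairs. RPL7L1 rose in both dedifferentiations while RPL7 was called in neither. RPL22L1, which can stand in for RPL22, differed by 0.46 ± 0.21 in DFAT (limma adjusted p = 0.124) and by 0.70 ± 0.23 in DFOG (SE, limma adjusted p = 0.0505), and RPL22 by 0.07 and −0.10, none of them called. RPS27L was low in GC alone, at 10.86 to 11.09 against 11.64 to 12.15 in the other groups. RPS27, its partner, differed by 0.40 in DFAT and −0.23 in DFOG without a call, though a second RPS27 probe set differed by −1.83 in DFOG and was called. Dimmer probe sets of RPS28 (−0.91) and RPLP0 (0.94) were also called there. RPL26L1 was high in GC, at 11.10 to 11.27 against 10.24 to 10.76 elsewhere, and the RPL26 probe set was too dim to compare. Probe sets of near copies may share signal, so the levels of the 2 genes of a pair are uncertain, as are those of members with processed pseudogenes.

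A few ribosomal proteins do not carry the symbols of the rule. RACK1, a scaffold on the cytosolic small subunit, rose in DFAT (0.61, limma adjusted p = 0.00506) and differed by 0.19 in DFOG without a call. FAU, the precursor of a small subunit protein, differed by 0.29 and −0.13 without a call. PTCD3, of the mitochondrial small subunit, rose in DFAT (0.90, limma adjusted p = 0.00178) and differed by 0.13 in DFOG. DAP3 (−0.06 and 0.35), CHCHD1 (−0.05 and 0.13) and GADD45GIP1 (−0.10 and −0.06), all of the mitochondrial ribosome, were called in neither.

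Factors that build the cytosolic ribosome were called mostly as rises. Of 51 measured biogenesis genes 16 rose and 3 fell in DFAT (37.3% called, median 0.42), and 17 rose and none fell in DFOG (33.3% called, median 0.44), where 20.7% of named genes rose in DFAT and 17.3% in DFOG. The called shares lay near those of all named genes, 41.1% and 30.6%. The medians for all probe sets were −0.07 and −0.02. The nucleolar proteins NOL6 (0.93 and 1.62), RPF2 (0.99 and 1.60) and GNL3 (1.01 and 1.57) and the H/ACA particle protein NHP2 (1.18 and 0.99) rose in DFAT and in DFOG. FBL, the methyltransferase of box C/D particles, rose in DFAT (1.57), as did POLR1C, a subunit shared by RNA polymerases I and III (1.09). SBDS, which helps release EIF6 from the large subunit, fell there (−1.34), as did POLR1D, another shared polymerase subunit (−1.11). RCL1, an endonuclease of small subunit processing, fell in DFAT (−0.87) and rose in DFOG (1.21). None of the 51 was called between DFAT and DFOG. Without DFOG replicate 1 the DFOG count was 7, without GC replicate 3 it was 10, and with the actin covariate the counts were 7 and 7. Proliferation markers rose with the biogenesis genes in DFAT (7 of 8) but not in DFOG, where 1 of 8 fell and none rose. Their part in the result was not tested.

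**Figure D5:**
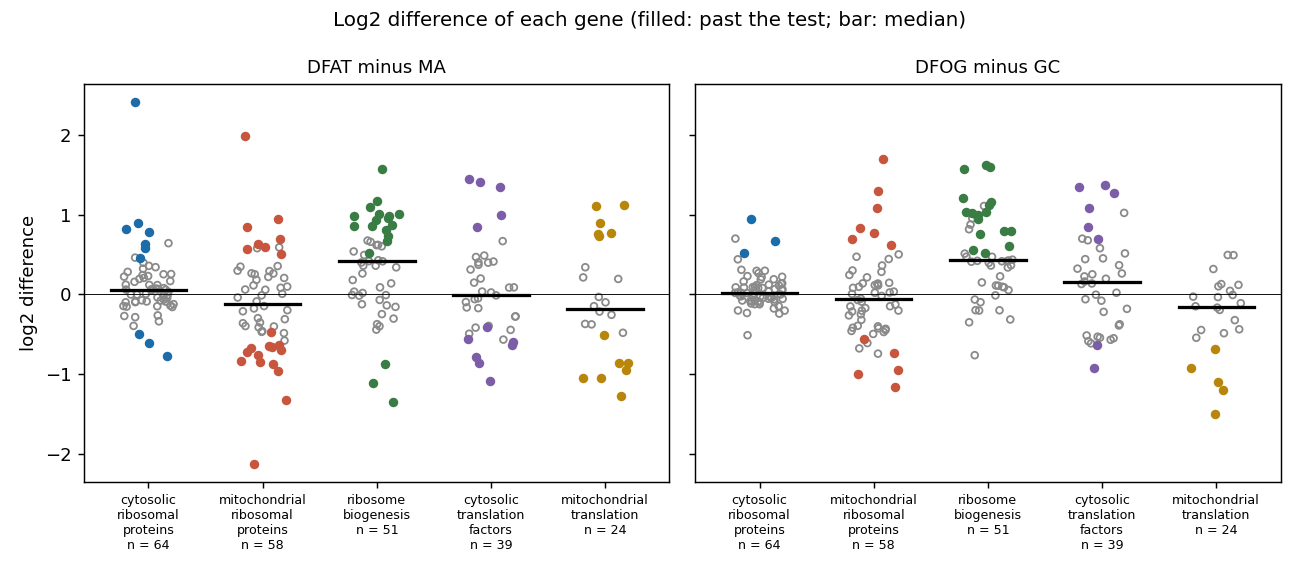
Log2 difference of each gene of the 2 ribosomal classes and of the translation lists in DFAT minus MA and in DFOG minus GC, 1 point per gene with filled points for called genes and a line at the median. The biogenesis genes have medians of 0.42 and 0.44, while the cytosolic members have medians of 0.05 and 0.02.

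Cytosolic translation factors went both ways. Of 39 measured, 5 rose and 7 fell in DFAT (30.8% called, median −0.01), and 6 rose and 2 fell in DFOG (20.5% called, median 0.16). Both shares lay below the 41.1% and 30.6% of named genes called, beside 32.1% and 24.9% of all probe sets. With the actin covariate the counts were 5 and 4. EIF4A1, the helicase of the cap-binding complex, rose in both (1.41 and 1.34), and EEF1E1, a scaffold protein of the aminoacyl-tRNA synthetase complex, did so too (1.45 and 1.27). EIF4A2, the second form of that helicase, fell in DFAT (−1.09), where EIF3I rose (1.34) and EIF2A (−0.86) and EIF3H (−0.78) fell. In DFOG the scaffold EIF4G1 rose (1.37), and EIF3K (−0.63) and PABPC1, the poly(A)-binding protein (−0.93), fell. PABPC1 fell in DFAT as well (−0.41, but 0.14 with poly-A centring). Without MA replicate 2 the DFAT count was 7, and without DFOG replicate 1, GC replicate 2 or GC replicate 3 the DFOG count was 5.

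Of 24 other genes of mitochondrial translation, 6 rose and 7 fell in DFAT (54.2% called, median −0.18), and none rose and 5 fell in DFOG (20.8% called, median −0.16). The called shares were 41.1% and 30.6% for named genes and 32.1% and 24.9% for all probe sets. With the actin covariate 5 were called in DFAT. TFB1M, which methylates the small subunit RNA, rose in DFAT (1.11), as did PNPT1, an RNA-degrading enzyme (1.13), and MTRF1L, a release factor (0.89). GRSF1, an RNA-binding protein of mitochondrial RNA granules (−1.28), and MTFMT, which formylates the initiator tRNA (−1.05), fell. The isoleucine synthetase IARS2 fell in both (−1.05 and −1.20). The valine synthetase VARS2 fell in DFOG (−1.49), and the phenylalanine synthetase FARS2 rose in DFAT (0.76) and fell in DFOG (−1.10). Without DFOG replicate 1 the DFOG count was 3.

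Only 6 of 19 listed regulators of ribosome synthesis were measured. Of these 1 rose and 2 fell in DFAT, and 3 rose and none fell in DFOG. That is 50% called in each, where 41.1% and 30.6% of named genes were called. MYC, which drives ribosome genes, fell slightly in DFAT (−0.61, limma adjusted p = 0.0193) and rose in DFOG (3.01). It was higher in MA than in GC by 3.66. PPRC1, a coactivator of nuclear genes for mitochondria, rose in both (1.92 and 1.89). EIF4EBP2, a repressor of cap-dependent translation under mTOR control, fell in DFAT (−2.46), and RHEB, the activator of mTOR, rose in DFOG (0.71). With poly-A centring the calls of MYC in DFAT (−0.055) and of RHEB in DFOG (0.041) were lost.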

How the data were processed

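The deposited values are log2 expression levels, which the authors made by RMA per the submitters' processing notes. The RMA version is not given in the sources used here, nor are its settings. The table held 24123 probe sets, and 124 control probe sets were left out. Symbols came from the platform annotation: 10069 probe sets had 1 symbol and 198 had several. Of the 122 members, 121 matched a pig RefSeq gene by Entrez identifier. The members and lists were chosen with earlier results of these data known.

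All groups entered 1 limma fit (limma 3.58.1 in R 4.3.3) with 11 samples, as lmFit and eBayes without covariates, and p-values were adjusted over 23999 probe sets. The script was tested on simulated data. Named in the text were the members with the largest called changes (up to 6 per direction and class in each dedifferentiation, up to 4 in other comparisons), paralogs, members called in both dedifferentiations and up to 3 genes per direction of each other list. MRPS10 in the interaction, the smaller calls of DFAT against MA and the remaining members were named after their values were seen. There were 10 alternative settings, and each of the 11 samples was left out in turn. The number of arrays limits the precision. Sequences were not used here.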

Additional observations from a re-analysis of the deposited data

Results flagged for a closer look

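The difference between the 2 dedifferentiations passed the interaction test for 2 cytosolic and 6 mitochondrial members (limma, adjusted over all probe sets). The log2 differences of differences, DFAT minus MA less DFOG minus GC, were 2.33 for RPL37 and 0.97 for RPL13 in the cytosolic class. In the mitochondrial class they were 1.25 for MRPS27, −1.69 for MRPS34, −1.44 for MRPS9, −1.19 for MRPL15, −0.89 for MRPL28 and −0.69 for MRPS10. Among the genes named from the other lists the interaction passed for the biogenesis genes FBL (1.77), POLR1D (−0.91), SBDS (−0.99) and RCL1 (−2.08), and for the translation factor EIF3I (1.32). It passed for MTRF1L (1.06), TFB1M (1.30), GRSF1 (−0.96), MTFMT (−1.02), FARS2 (1.87) and VARS2 (1.12) of mitochondrial translation, and for the regulators MYC (−3.61), RHEB (−0.71) and EIF4EBP2 (−2.04). With poly-A centring, which adds the same amount to every interaction value, MRPL15, MRPL28, MRPS10, POLR1D, SBDS, GRSF1, MTFMT and RHEB turned positive, and MRPS34, MRPS9, RCL1 and EIF4EBP2 no longer passed the test. All groups held 3 samples or fewer, so no single sample was tested as an outlier.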

How the results depend on the processing

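Of the 85 calls of members over the 5 comparisons, 41 held without any 1 sample and 15 held in every alternative run. With the actin covariate 33 of the 85 were lost, and with poly-A centring 50 were lost or turned sign. Calls in the direction of the poly-A shift could only grow in size under it, so for them that run is no check. Counts of called cytosolic members changed as follows. In DFAT against MA (10) they were 2 with the actin difference as a covariate, 6 with only the groups compared and 23 with centring on the spiked poly-A controls. In DFOG against GC (3) they were 0 with the actin covariate, 5 with a trended, robust variance or a mean over probe sets per gene, 6 with 12 separate arrays or array weights, and 12 with poly-A centring. In the interaction (2) they were 4 with array weights, 5 with 12 arrays or a second quantile normalization and 55 with poly-A centring, and in MA against GC (10) they were 20 with array weights and 61 with poly-A centring. Between DFAT and DFOG (0) 1 was called with 12 arrays, the actin covariate, dim probe sets left out, a trended variance, the mean over probe sets or a second quantile normalization. For mitochondrial members DFAT against MA (22) gave 12 with the actin covariate, DFOG against GC (12) gave 28 with poly-A centring, the interaction (6) gave 11 with 12 arrays, 13 with array weights and 39 with poly-A centring, MA against GC (19) gave 32 with array weights and 46 with poly-A centring, and DFAT against DFOG (1) gave 0 with only the groups compared and with poly-A centring. The cause of these shifts was not tested.

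With poly-A centring the all-probe-set median went from −0.07 to 0.48 in DFAT against MA, from −0.02 to −0.68 in DFOG against GC, from −0.05 to 1.17 in the interaction, from 0.07 to −1.09 in MA against GC and from 0.01 to 0.07 in DFAT against DFOG. Cytosolic and mitochondrial medians moved along with it, to 0.60 and 0.43, −0.64 and −0.73, 1.22 and 1.12, and −1.10 and −1.06 in the first 4 of these. The split of called members became 23 higher and 0 lower (cytosolic) and 20 and 2 (mitochondrial) in DFAT against MA, 0 and 12, and 1 and 27, in DFOG against GC, and 0 and 61, and 0 and 46, in MA against GC. This centring shifts all probe sets of an array alike, so differences between the class medians and the all-probe-set median cannot change under it, and each called difference smaller than the shift and against it must turn sign. That was so for 25 of the 85 calls of members: RPLP2 (0.059) and MRPS5 (0.082) in DFAT against MA, RPS27L (−0.0006), RPSA (−0.15) and MRPL17 (−0.051) in DFOG against GC, MRPS10 (0.53), MRPL28 (0.33) and MRPL15 (0.028) in the interaction, and in MA against GC RPL36AL (−0.37), RPLP2 (−0.60), RPS27L (−0.26), RPL6 (−0.68), RPL9 (−0.72), MRPL1 (−0.49), MRPL28 (−0.41), MRPL30 (−0.28), MRPL33 (−0.58), MRPL36 (−0.59), MRPL39 (−0.50), MRPL44 (−0.62), MRPL45 (−0.62), MRPL54 (−0.70), MRPS34 (−0.16), MRPS35 (−0.13) and MRPS36 (−0.27). Of the genes from other lists PABPC1 in DFAT against MA (0.14) and SBDS (0.22), POLR1D (0.30), GRSF1 (0.26), MTFMT (0.20) and RHEB (0.51) in the interaction turned too. A second quantile normalization moved the cytosolic median of DFOG against GC to −0.10.

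Other lists gave these counts. Biogenesis genes in DFAT against MA (19) numbered 7 with the actin covariate and 33 with poly-A centring, and in DFOG against GC (17) they numbered 7, 8 with poly-A centring and 26 with array weights. Translation factors numbered 5 in DFAT against MA (12) with the actin covariate, and in DFOG against GC (8) 4 with the actin covariate, 13 with poly-A centring, 14 with array weights and 15 with 12 arrays. Mitochondrial translation genes numbered 5 in DFAT against MA (13) with the actin covariate and 12 in DFOG against GC (5) with poly-A centring. The cytosolic proteins outside the symbol rule gave 0 and 2 calls (1) with the actin covariate and poly-A centring in DFAT against MA, and 1 call (0) in DFOG against GC with poly-A centring or the mean over probe sets. The mitochondrial ones gave 0 (1) with the actin covariate in DFAT against MA.

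Leaving out 1 sample gave 4 to 10 cytosolic and 15 to 22 mitochondrial calls in DFAT against MA, 0 to 5 and 6 to 15 in DFOG against GC, 1 to 4 and 2 to 7 in the interaction, 6 to 11 and 12 to 24 in MA against GC, and 0 to 1 and 0 to 2 in DFAT against DFOG, where the cytosolic median ran from −0.014 to 0.16. It gave 14 to 22 and 7 to 22 biogenesis genes, 7 to 13 and 5 to 12 translation factors and 11 to 13 and 3 to 6 mitochondrial translation genes in the 2 dedifferentiations.

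Same-numbered MA and DFAT arrays correlated in their deviations by 0.0999, 0.17 and 0.13, and differently numbered ones by −0.13 to −0.0025, so each array correlated best with its own number, a hint from the data and not from the design, while not every pair exceeded 0.1. Same-numbered GC and DFOG arrays correlated by 0.60, 0.51 and 0.36, but DFOG replicates 2 and 3 count as 1 sample, and DFOG replicate 3 correlated better with GC replicate 2 (0.51). Whether the numbers pair the samples is thus not settled by these data. With a replicate block on 12 arrays the cytosolic count was 6 in DFOG against GC, 5 in the interaction and 1 in DFAT against DFOG, the mitochondrial count was 11 in the interaction, and 16 translation factors were called in DFOG against GC.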

Other observations

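The array also carries control probe sets for ribosomal RNA, which were left out of the tests. The 5S probe set read 4.22 to 4.98 in MA, 5.61 to 7.64 in DFAT, 7.60 to 8.66 in GC, and 6.08 and 6.46 in the 2 DFOG samples. One 28S probe set ranged over 4.79 to 9.85 within GC. Ribosomal RNA has no poly(A) tail, and how much of it is labelled in a 3′ amplification was not tested.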
